A study of Homo sapiens with 4 samples.

Results

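The stretch of chromosome 12 described here was dense in PPARG peaks in 1 of the 2 cell lines studied. It includes NR4A1 and the keratin genes KRT80, KRT7, KRT81 and KRT86, the 5 genes against which peaks were placed. Other genes of the stretch were not placed. Its members were all peaks with a midpoint between positions 52000000 and 53000000 of chromosome 12 (genome build hg19) in either of the 2 deposited lists. They numbered 12 of 3644 peaks, of which 10 were among the 2225 peaks of NCI-H2347 and 2 among the 1419 peaks of NCI-H1993. The window was selected on its number of NCI-H2347 peaks in the deposited list, so that number is a description and was not tested.

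NCI-H1993 and NCI-H2347 are human lung adenocarcinoma cell lines. Both carried a bacterial artificial chromosome transgene that encodes PPARG fused to a tag containing EGFP, and chromatin was precipitated with a goat antibody against EGFP before sequencing (ChIP-seq). There was 1 ChIP library and 1 input library per line. The labels give no treatment, no ligand and no statement on whether each transgenic line was 1 clone. The list names carry the letters PIO, which the labels leave unexplained. The antibody reports the tagged protein only, and any PPARG that the cells make themselves is not seen. The labels describe no line without the tag.

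PPARG is a nuclear receptor that binds DNA with its partner RXR at paired AGGTCA half-sites and is best known as the regulator of fat cell differentiation and lipid storage. NR4A1 (NUR77) is an orphan nuclear receptor encoded by an immediate-early gene. The keratins of this stretch are type II keratins, which pair with type I keratins to build the intermediate filaments of epithelial cells. KRT7 is a keratin of simple epithelia and a common marker of lung adenocarcinoma, KRT80 is an epithelial keratin linked to differentiation, and KRT81 and KRT86 are best known as hair keratins with closely similar sequences.

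The genes were placed at a resolution of 1 kb on hg19. NR4A1 spans 52416 to 52454 kb, KRT80 52562 to 52586 kb, KRT7 52626 to 52643 kb, KRT86 52642 to 52703 kb and KRT81, inside the KRT86 interval, 52679 to 52686 kb. The intervals of KRT7 and KRT86 overlap by their edges here. In the RefSeq gene table of another build (GRCh38.p14) the annotated KRT7 and KRT86 do not overlap, and the pseudogenes KRT87P and KRT88P follow the start of KRT7 before KRT86 begins. KRT80 is transcribed towards lower positions and KRT7 towards higher positions, which is general knowledge and not taken from the files. The upper edge of KRT80 and the lower edge of KRT7 are therefore the sides on which these genes start. Exons and introns on hg19 were not used here.

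The peaks gathered beside KRT80 and in and beside KRT7, and not at NR4A1 or KRT81. In NCI-H2347, 8 of the 10 peaks lay between 52561389 and 52643877, a stretch of 82.5 kb from the far edge of KRT80 to just past the end of KRT7. Both NCI-H1993 peaks lay in the same stretch, beside and inside KRT7. All 4 NCI-H2347 peaks with a score of at least 100 were in the interval between KRT80 and KRT7, at the starting sides of these genes. In the RefSeq gene order, LINC02874, LINC00592 and the pseudogene TMT1AP1 follow KRT80 before KRT7 begins. Peaks were not placed against them, so closeness to KRT80 or KRT7 does not make either the gene served by a peak. The score comes from the authors and ranks peaks within 1 list only. No peak midpoint of either list lay in NR4A1, KRT80 or KRT81, and KRT80 had nearby peaks in NCI-H2347 only. For KRT80 this is uncertain, since NCI-H2347 midpoints lay 0.006 kb and 0.49 kb outside its edges, which are known to 1 kb.

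**Figure D1:**
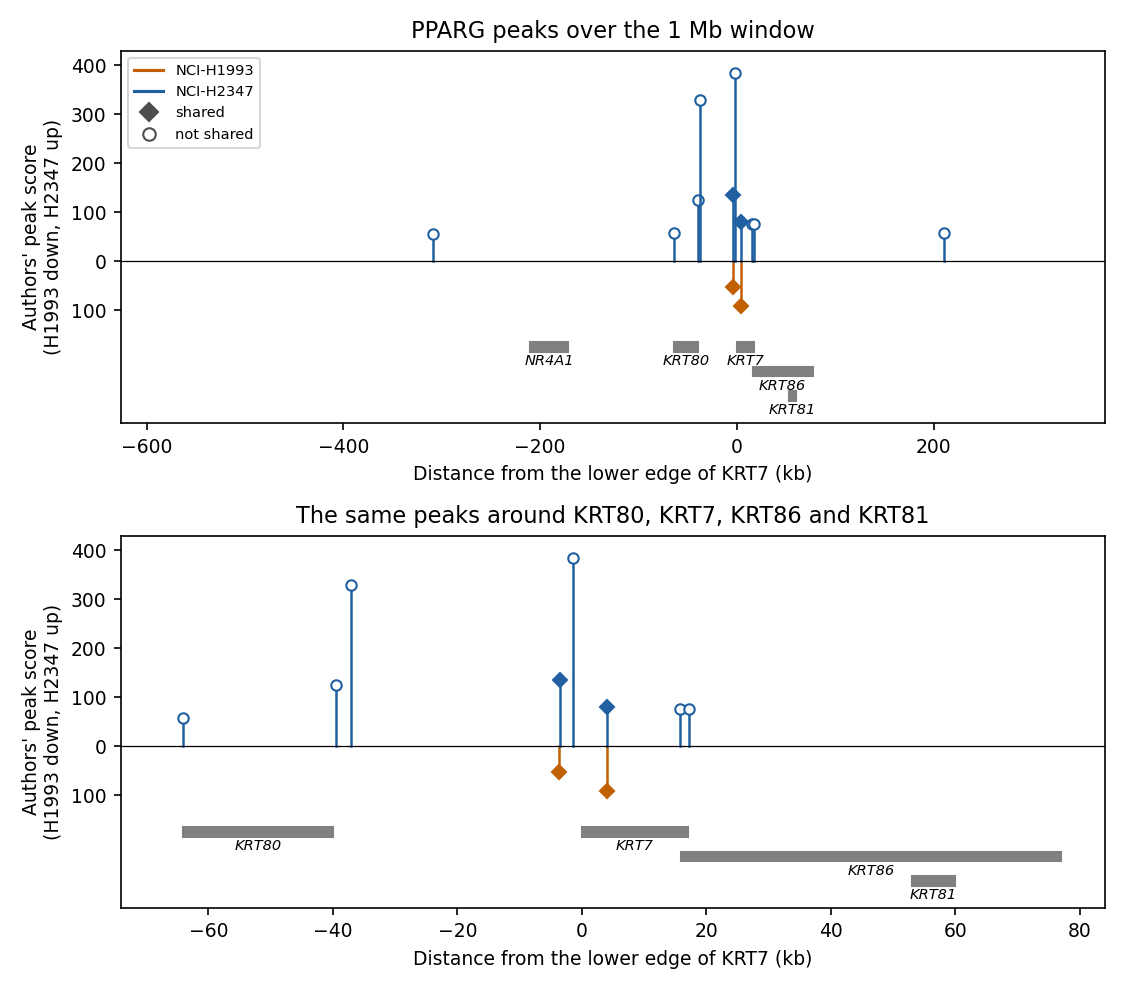
Peak score (vertical axis, NCI-H2347 upward and NCI-H1993 downward) against distance in kb from the lower edge of KRT7, for the whole window (top) and around the keratin genes (bottom), with grey bars for the 5 gene intervals. Filled diamonds are peaks that overlap a peak of the other list and open circles are peaks that do not. The 2 tallest NCI-H2347 peaks, at 384 and 329.7, stand inside the interval between KRT80 and KRT7, near its opposite ends. No peak stands over NR4A1 or KRT81.

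KRT80 had NCI-H2347 peaks at both edges and no NCI-H1993 peak within 10 kb. The peak at the starting side closest to the gene ran from 52586013 to 52586967, with a midpoint 0.49 kb past the upper edge and a score of 125. A second peak, from 52588339 to 52589353, had its midpoint 2.85 kb past the same edge. Its score was 329.7, which is rank 44 of 2225 in the list and rank 3 of 143 on chromosome 12. These neighbours were separated by 1371 bp, and the farther peak was the stronger. At the other end of KRT80, where the gene ends, a peak from 52561389 to 52562600 straddled the lower edge. It was among the weaker peaks of the list, with a score of 57.4 and rank 1744, and it was wide, at 1212 bp. Its midpoint lay 0.006 kb outside the interval. This distance and the 0.49 kb at the upper edge are both less than the 1 kb resolution of the gene's edges. In NCI-H1993 the nearest peak to KRT80 was 36.4 kb past its upper edge, close to KRT7.

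KRT7 had the highest-scoring peak of the window. In NCI-H2347 a peak of 1586 bp from 52623757 to 52625342 had a score of 384, rank 25 of 2225 in the list and rank 2 of 143 on chromosome 12. Its midpoint was 1.45 kb before the lower edge of KRT7, where the gene starts. It was wider than 97.8% of the list. No NCI-H1993 peak overlapped it, though the closest one ended 1.06 kb away. Among the 1742 NCI-H2347 peaks that overlap no NCI-H1993 peak it ranked 6 by score, and the strong peak beside KRT80 ranked 14.

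Next to it, 684 bp farther from KRT7, lay a site found in both lines. The NCI-H2347 peak ran from 52621930 to 52623072 with a score of 136 (rank 432). The NCI-H1993 peak ran from 52622125 to 52622697 with a score of 52.7 (rank 1249 of 1419). The NCI-H1993 peak was contained in the NCI-H2347 peak, and the midpoints were 90 bp apart. In NCI-H1993 this was a weak call, with 11.9% of that list scoring lower, whereas 80.6% of the NCI-H2347 list scored lower than its counterpart.

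The second shared site was inside KRT7. The NCI-H2347 peak ran from 52629544 to 52630498, with a score of 80.8 (rank 1034), and the NCI-H1993 peak from 52629826 to 52630278, with a score of 90.5 (rank 412). The NCI-H1993 midpoint was 4.05 kb inside the lower edge, and the midpoints were 31 bp apart. The NCI-H1993 peak was again contained in the NCI-H2347 peak. At 453 bp it was narrow for its list, in which 3.59% of peaks were narrower. The order of the shared sites was opposite in the lists. NCI-H2347 scored the site before KRT7 higher, and NCI-H1993 scored the site inside KRT7 higher. With 1 library per line this difference has no replicate check and was not tested.

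**Figure D2:**
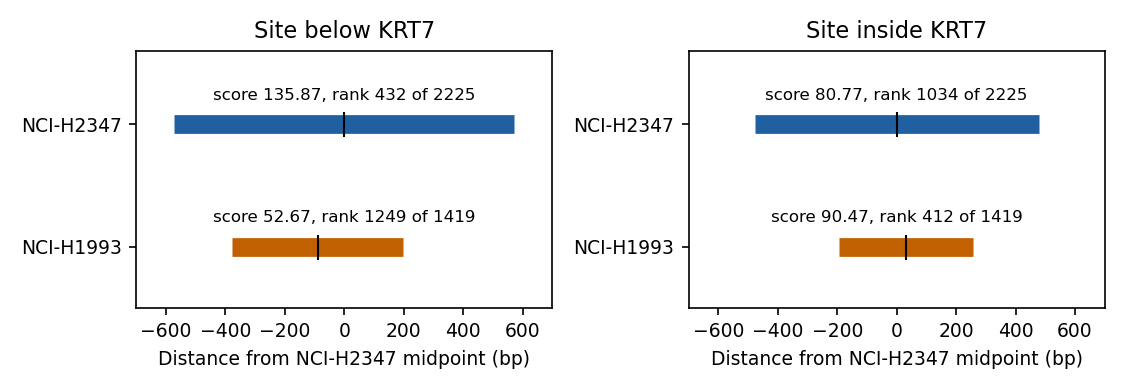
Extent of the peaks at the 2 shared sites in each list, in bp from the midpoint of the NCI-H2347 peak, with a black tick at each midpoint and the score and rank above each bar. Both NCI-H1993 peaks lie within the NCI-H2347 peaks, with midpoints 90 bp and 31 bp apart.

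A pair of NCI-H2347 peaks lay at the far end of KRT7, where its interval meets that of KRT86. The first, from 52641181 to 52642229, had its midpoint inside KRT7 and a score of 75.8. The second, from 52642411 to 52643877, had a score of 76.3 and its midpoint inside the KRT86 interval, 0.14 kb past the end of KRT7. They were 181 bp apart and nearly equal in score, at ranks 1135 and 1124. Both touched KRT7 and KRT86 as placed here, and neither overlapped an NCI-H1993 peak, of which the nearest lay 10.9 kb away. At 1467 bp the second was wider than 96.3% of the list. Its assignment to KRT86 rests on interval edges known to 1 kb.

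KRT81 and the rest of KRT86 held no peak in either list. The nearest peak to KRT81 was the one just past KRT7, 35.9 kb before its lower edge, in NCI-H2347, and in NCI-H1993 it was 48.9 kb before. On the other side, NCI-H2347 had no peak for 150.5 kb. KRT81 and KRT86 are near copies of each other, and the treatment of reads that match both is not given in the sources used here, so the lack of peaks over them is uncertain. A missing peak shows only that no peak passed the authors' threshold.

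NR4A1 had no peak within 10 kb in either list. In NCI-H2347 the nearest peaks were 99.2 kb before its lower edge and 108 kb after its upper edge, with scores of 55.7 and 57.4, and in NCI-H1993 the nearest was 168 kb after. In gene order, ATG101 and SMIM41 lie between NR4A1 and KRT80 in the RefSeq table. The peak before NR4A1, from 52316519 to 52317165, was the lowest-scoring of the 10 NCI-H2347 peaks (rank 1847). On that side of NR4A1 the RefSeq order has TAMALIN, ACVR1B and ACVRL1, and the peak was not assigned to any of them. The other outlying NCI-H2347 peak ran from 52836217 to 52836836 with a score of 57.15. It was 133.5 kb past the end of KRT86, on the side where KRT83, KRT85, KRT84 and KRT82 follow in the RefSeq order. That order was read only a short way past KRT86, so genes nearer to this peak may be missing from it. The peak was not assigned to any gene. NR4A1 was the 1 gene of the 5 with promoter entries in the RefSeq promoter table (GRCh38.p14, 300 bases each, 2 start sites). Neither held the half-site AGGTCA, which occurs in 13.8% of the 35116 promoters of that table, nor the NR4A1 element AAAGGTCA (1.22%), nor the PPAR element DR1, which is 2 copies of AGGTCA spaced by 1 base (0.023%), each searched on both strands. The 3 sets of letters overlap, since each contains the half-site. KRT80, KRT7, KRT81 and KRT86 had no entry there.

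By score, the window's NCI-H2347 peaks ran from rank 25 to rank 1847 of 2225, and 16.9% of the list scored below the weakest of them. The 10 NCI-H2347 peaks had scores from 55.7 to 384 with a median of 78.5, close to the median of 77.1 for the whole list, and 5 of the 10 were above that list median. Of the 10, 4 had a score of at least 100, beside 33.0% of the whole list. The top 10% of the list (222 peaks) held 2 of the 10, the peaks beside KRT80 and KRT7 described above. In NCI-H1993 the 2 peaks scored 52.7 and 90.5, beside a list median of 69.8, and 0 of 2 reached 100, beside 23.8% of the list. The window peaks of NCI-H2347 were 620 to 1586 bp wide, and 8 of 10 were wider than the list median of 832 bp.

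**Figure D3:**
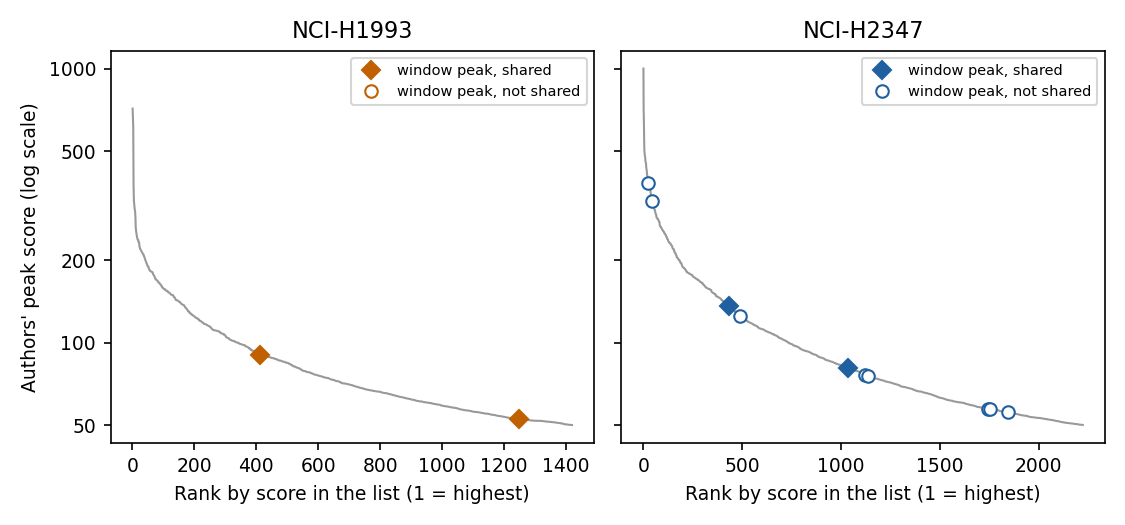
Authors' score (log scale) against rank within each list, with all peaks as a grey line and the window's peaks as symbols, filled where the peak overlaps one of the other list. The NCI-H2347 peaks at ranks 25 and 44 are not shared, and the shared ones are at ranks 432 and 1034.

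In NCI-H2347, 2 of 10 peaks, or 20.0% (95% Wilson interval 5.67% to 51.0%), overlapped an NCI-H1993 peak by at least 1 bp, beside 21.7% of the whole list, a share near that background. In NCI-H1993 both peaks were shared (2 of 2, 95% Wilson interval 34.2% to 100%), beside 34.2% of the list. The window was picked for its many NCI-H2347 peaks, which makes such an overlap more likely, so nothing is read from this share. These intervals cover counting error only and treat neighbouring peaks of 1 library as independent. Of the 4 NCI-H2347 peaks scoring at least 100, 3 were not shared, beside 455 of the 734 such peaks in the whole list (62.0%).

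The peaks were packed closely within the 82.5 kb from KRT80 to KRT7. Of the 10 NCI-H2347 peaks, 7 had another NCI-H2347 peak with a midpoint within 10 kb, beside 14.1% of the list, and both NCI-H1993 peaks had one, beside 7.75%. Since the window was picked for its density, nothing is read from these counts. Of the 2064 runs of 8 successive NCI-H2347 peaks in the list, none spanned less than these 82.5 kb, and the median span was 6288 kb. The next shortest separate run, on chromosome 17 from 57833187 to 57931427, spanned 98.2 kb. The run length of 8 was taken from this stretch, in a window picked for its density. A high rank was therefore built in, and nothing is read from it or from the ranks that follow. For other lengths the shortest run in the window ranked 12 with 3 peaks, 7 with 4, 2 with 5, 2 with 6, 1 with 7, 2 with 9 and 2 with 10. With peaks of NCI-H2347 less than 2 kb apart counted as 1, the window held 7 sites in place of 10.

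Among windows of 1 Mb with at least 1 peak, NCI-H2347 had 1129 and a median of 1 peak each, and 2 windows held more than the 10 found here. In NCI-H1993 the 2 peaks of this window were matched by 207 other windows and exceeded by 126. The 2 fuller NCI-H2347 windows, on chromosome 17 from 48000001 and from 57000001, held 12 peaks each, of which 1 and 5 were shared, beside 2 of 10 here. Their median peak scored above 63.3% and 76.2% of the list, and that of the keratin window above 51.5%. The windows with 9 NCI-H2347 peaks, on chromosome 1 from 201000001 and on chromosome 11 from 65000001, had medians above 50.9% and 44.0% of the list, and 3 and 1 of their peaks were shared. These differences were not tested. The window's edges cut through no group of peaks. In NCI-H2347 the last peak before the window, from 51765091 to 51766023 with a score of 75.01, lay 234 kb below its lower edge, and the first inside lay 317 kb above that edge. The last peak inside lay 163 kb below the upper edge. The first peak after the window was 320.0 kb above the upper edge in NCI-H2347, from 53319575 to 53320448 with a score of 113. The NCI-H1993 list had a peak from 53319569 to 53320575 with a score of 93.8. In NCI-H1993 the last peak before the window was 5138 kb below its lower edge.

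**Figure D4:**
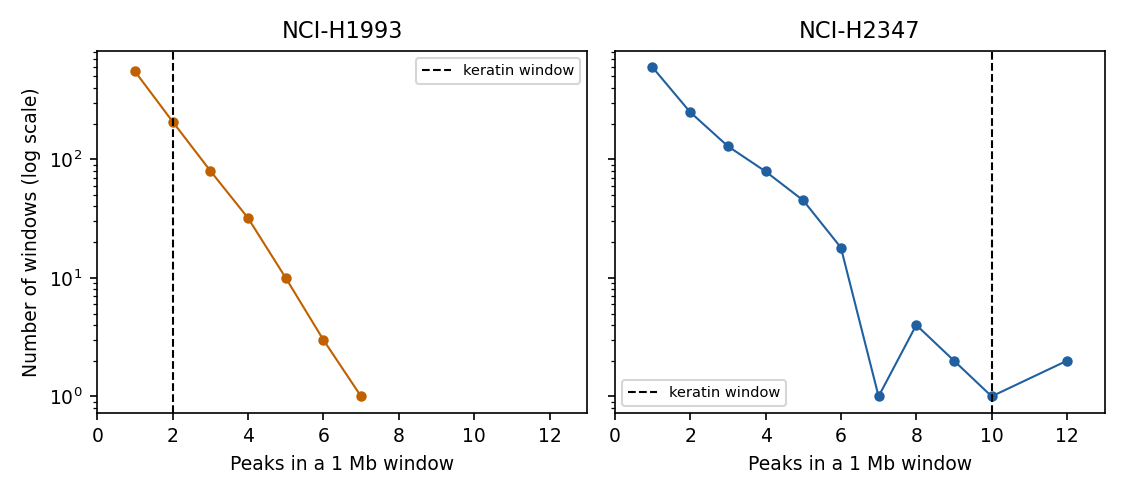
Number of 1 Mb windows (log scale) by the number of peaks they hold, for windows with at least 1 peak, in each list; the dashed line marks the keratin window. It stands at 10 peaks in NCI-H2347, where the fullest windows hold 12, and at 2 peaks in NCI-H1993, where the fullest holds 7.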

How the data were processed

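Both peak lists have 5 columns: chromosome, start, end, name and score. Per the submitters' processing notes they were made with MACS 1.4.2 on hg19. For the aligner, read filters, threshold and use of the inputs, nothing is given in the sources used here. Input data were not used here. The score was deposited by the authors for each peak and is comparable within a list only. Depth is unknown from such lists, and with 1 ChIP library per line no difference has a replicate check, so no test was run. Starts were converted to 1-based positions. Peaks were ranked by score, called shared at an overlap of at least 1 bp, and placed by midpoint in the 5 gene intervals. All peaks of the window and the 5 genes are named. The window, genes and lists of results were chosen with earlier results of these data known. The shares of window peaks that overlap the other list carry 95% Wilson intervals, and the other shares carry none. No sequence of hg19 was used, so no peak sequence is shown. Alternatives changed the overlap rule, score minimum, list length, window position, gene edges, ranking set and motif mismatches. The overlap count and the rank of the top score were tested on simulated lists, and the other steps were not. Tools were pandas 2.3.3, scipy 1.17.1, numpy 2.4.6 and, for figures, matplotlib 3.10.9 under Python 3.11.15.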

Additional observations from a re-analysis of the deposited data

How the results depend on the processing

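Gene placement moved with the score minimum and with wider gene intervals. In NCI-H2347, 3 of 10 midpoints lay inside the 5 gene intervals, 8 with intervals widened by 5 kb and 8 with 10 kb, and 0 of the 4 peaks scoring at least 100. In NCI-H1993 the count was 1 of 2, and 2 with either widening, and 0 with a score of at least 100. The NCI-H2347 peaks 0.006 kb and 0.49 kb outside KRT80, scoring 57.4 and 125, were counted as outside, though its edges are known only to 1 kb. A score of at least 100 left 4 peaks of NCI-H2347 and 0 of NCI-H1993 in the window, and 0 shared in either list. Both NCI-H1993 peaks, at 52.7 and 90.5, fell below that score, so neither shared site kept its partner. With 50% reciprocal overlap 1 peak of each list was shared in place of 2, because the NCI-H1993 peak inside KRT7 covers 47.4% of its wider counterpart. With 1 mismatch allowed the NR4A1 promoters held 3 half-site matches in place of 0. The share of all promoters with such a match was not computed, so nothing is read from this count. The other 22 of 35 values under an alternative stayed within 1.5 times the count or, for the median score percentile, within the spread of the window's peaks. That spread is wide, so the percentile check is a loose one. The count check is loose as well. With the NCI-H2347 list cut by score to 1419 peaks, the length of the NCI-H1993 list, the window held 7 NCI-H2347 peaks in place of 10. Ranked among chromosome 12 peaks only, the median percentile was 43.7 in place of 51.5 in NCI-H2347. In NCI-H1993 it was 45.3 in place of 41.4. Counting peaks less than 2 kb apart as 1 was chosen after seeing the data. No paired analysis was possible because each line had a single ChIP library.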
